A study of Ovis aries with 6 samples.

Results

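The genes described here are those that carry a sheep RefSeq mRNA name on the array and gave no signal well above background in the skin of any of the 6 sheep. They were chosen by the detection flag that the Agilent software writes for each spot. An accession-named probe was kept when the flag was absent at every one of its spots on all 6 arrays, and a gene was left out when another of its accession-named probes carried the flag on 3 or more arrays. This gave 46 of 758 accession-named probes (6.07%), for 35 of 489 genes (7.16%). Of the 35 genes, 33 have a symbol in the sheep reference and 2 do not. Before genes with a detected probe were left out, 64 of the 758 probes (8.44%) were not well above background on any array, beside 1300 of all 15008 non-control probes (8.66%). All of these counts follow from the rule and none of them was tested.

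RNA came from full-thickness skin (about 1 cm2 of body side, epidermis and dermis) of 3 small tail Han sheep, which carry coarse wool, and 3 Aohan fine wool sheep, all 12 months old, untreated and kept in pens. Each breed had 1 ram and 2 ewes, the ram is not marked in the labels, and each sheep gave 1 Cy3 array. Breed, sire and scan session cannot be told apart, since the 3 sheep of a breed had the same father and their arrays were scanned in 1 session of their own. Sheep are numbered by the replicate numbers of their labels.

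A spotted oligonucleotide reports a transcript only when enough labelled copies bind to stand clear of the light that empty glass and non-specific binding give. The absence of such a signal bounds the level that the probe could report, and does not show that a transcript is absent. Skin holds keratinocytes, wool follicles, sebaceous and sweat glands, fibroblasts, vessels, fat and resident immune cells, while hormones of the pituitary, proteins of the placenta or lens, and factors of the oocyte are known from other organs. In whole tissue, fewer cells of a type and less RNA per cell cannot be told apart.

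The flag behaved as a fixed limit on each array. Every non-control spot with the flag had a higher background-subtracted signal than every spot without it, and the lowest flagged signal, called the limit below, was 26.6, 55.0 and 29.2 scanner units on small tail Han arrays 1 to 3, against 38.9, 17.5 and 26.1 on Aohan arrays 1 to 3. A probe counts as above the limit on an array where at least 1 of its spots carried the flag, so the mean of a probe with 5 spots can lie under the limit. In each array the limit is 5.0 times the noise estimate that the software wrote in the header. The room above the limit also differed, since the 75th percentile of the background-subtracted signal came to 85.6, 33.2 and 58.8 limits for small tail Han sheep and to 28.2, 115.4 and 43.2 limits for Aohan sheep. Aohan array 2 was thus the array on which a weak transcript could most easily pass, and Aohan array 1 and small tail Han array 2 were the hardest. Accession-named probes that did not pass numbered 103, 198 and 113 for small tail Han sheep, and 202, 78 and 157 for Aohan sheep. Of the genes written into the list for skin and wool, 9 had such a probe, and all 9 of them, among them the inner root sheath keratins KRT25 and KRT27, the wool keratin KRT35, stratifin (SFN) and tyrosinase (TYR), had a probe above the limit on all 6 arrays. The wool protein BIIIB4, a member described below, was not on that list. Of all accession-named probes 69.8% were above the limit on all 6 arrays, as were 68.8% of all non-control probes. No spot was saturated.

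The median of the member probes lay close to zero signal on every array. Over the 46 probes the background-subtracted signal ran from -6.4 to 24.8 (median 3.8), from -26.8 to 40.6 (median -1.4) and from -9.0 to 28.9 (median 4.8) on small tail Han arrays 1 to 3. On Aohan arrays 1 to 3 it ran from -14.6 to 23.7 (median -2.6), from -8.1 to 16.6 (median 6.0) and from -12.1 to 20.4 (median 0.3). The other undetected probes of the array, most of which carry no RefSeq mRNA name, had medians between -5.0 and 5.6. The 77 negative control spots of each array, whose sequence matches no sheep transcript by design, had medians of -6.1, -12.1, -6.2, -10.6, -3.4 and -7.7 in the same order. All of these lie below zero, so the sign of a reading does not separate it from the blank spots. On 4 arrays 1 negative control spot carried the flag. It read 53.5 and 85.6 on small tail Han arrays 1 and 3, and 65.5 and 50.3 on Aohan arrays 1 and 3. On each array 35 to 44 of the 46 member probes lay above the negative control median, and the median of the members exceeded it by 7.9 to 11 units. On Aohan array 2, 33 of the 46 lay at or below the 99th percentile of the negative controls, against 44 to 46 on each other array. On all 6 arrays 32 of them did, so not every member was as low as the blank spots. The local background of member spots had medians of 51.5, 55.8, 51.0, 45.0, 45.0 and 44.0, beside 52.5, 55.0, 51.0, 45.5, 45.5 and 44.5 over all probes, so it was higher than over all probes on small tail Han array 2 only.

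**Figure D1:**
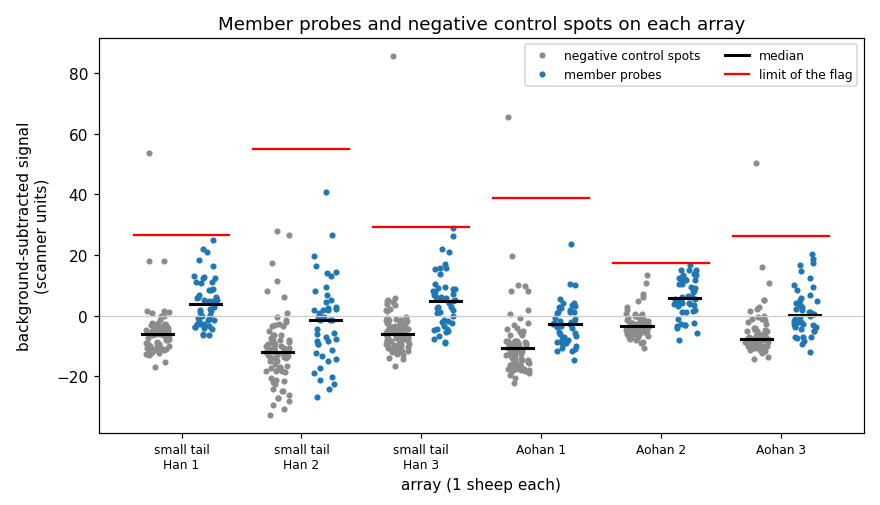
Background-subtracted signal (scanner units) of the 46 member probes (blue) and the 77 negative control spots (grey) on each array, with medians as black bars and the limit of the detection flag as a red line. Members lie under the limit by the rule, and their median lies 7.9 to 11 units above that of the negative controls on each array.

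A weaker flag, set when a spot is significantly above its local background, divided the members. It was set on no array for 11 probes, on 1 array for 12, on 2 for 5, on 3 for 6, on 4 for 7, on 5 for 4 and on all 6 for 1 probe, that of the casein CSN1S2. By array it was set for 19, 7 and 21 members among small tail Han sheep, and for 4, 31 and 12 in Aohan sheep. Aohan array 2, which had the lowest limit, gave the most and Aohan array 1 the fewest. As a multiple of the limit, the median of a probe over the 6 arrays ran from -0.36 to 0.74 with a middle value of 0.05, 19 probes had a median signal below zero, and 21 stayed under 0.5 of the limit on every array. The ratio to the limit was highest on Aohan array 2 for 23 of the 46 probes, and lowest on Aohan array 1 for 23 and on small tail Han array 2 for 16. In the authors' normalized log2 values, made from the same arrays, the median percentile of member probes among all probes was 1.83 to 12.41.

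**Figure D2:**
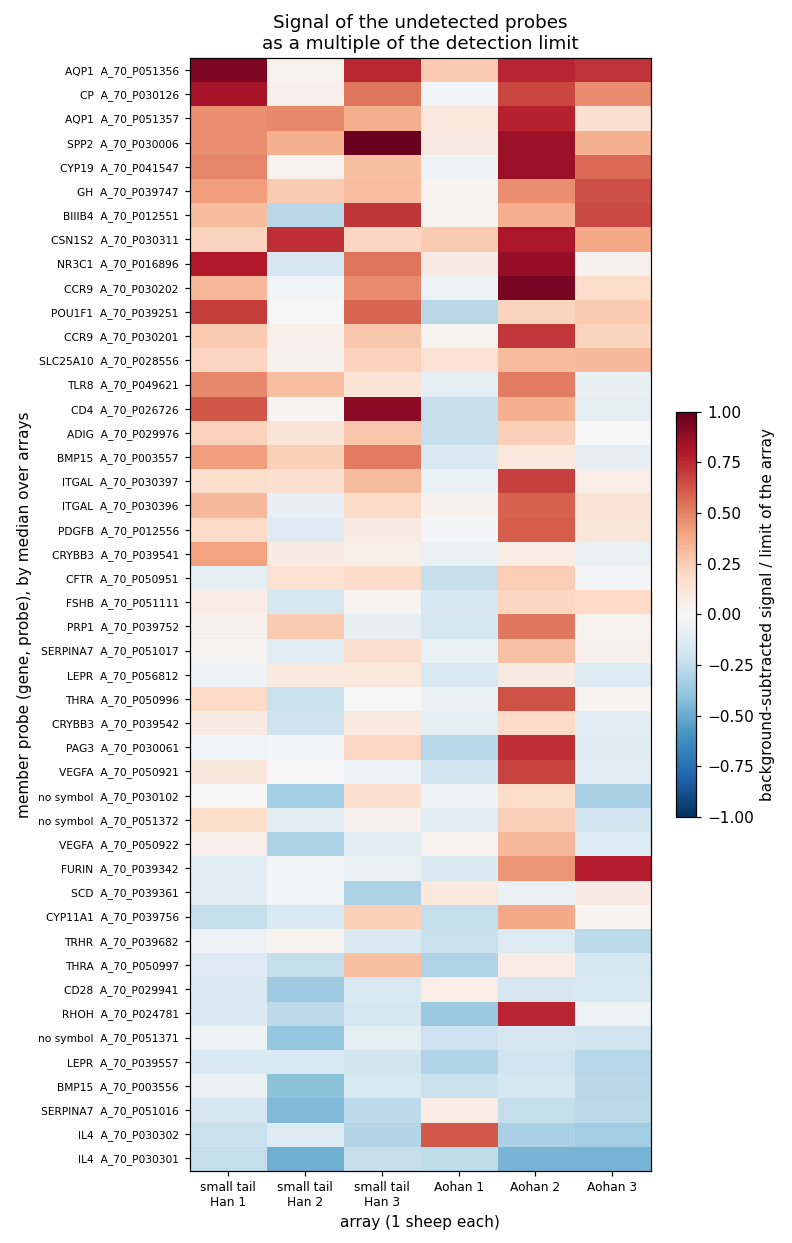
Background-subtracted signal of each member probe (rows, ordered by their median) on each array (columns), divided by the limit of that array. The limit is 1, and 0 is a signal equal to the subtracted background, which lies above the negative control median on every array. AQP1, CP and SPP2 stand near the top and both IL4 probes at the bottom, and the columns of Aohan array 1 and small tail Han array 2 are palest or blue.

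Among members with a role in immunity, interleukin 4 gave the least signal of all. IL4, the cytokine that drives T helper 2 responses and the switch to IgE, has a pair of probes, and A_70_P030301 read -6.3, -26.8 and -6.6 in the small tail Han breed and -9.9, -8.1 and -12.1 in the Aohan fine wool breed. It was below zero in all 6 sheep, while its partner A_70_P030302 read -5.9, -7.6 and -8.7 in the small tail Han breed and 23.7, -5.7 and -9.2 in the Aohan fine wool breed, so that only Aohan sheep 1 stood above zero. Both IL4 probes hold the lowest places in the order of median signal over the limit, and the next is the serpin SERPINA7. CD28, the costimulatory receptor of T cells, read -3.9, -20.1 and -4.4 in small tail Han and 2.6, -3.0 and -3.9 in Aohan sheep, below zero in all but Aohan sheep 1. CD4, the coreceptor of helper T cells, read 16.5, 0.8 and 26.3 in small tail Han and -9.1, 6.3 and -2.6 in Aohan sheep at A_70_P026726, and small tail Han sheep 3 reached 0.898 of the limit. ITGAL, the alpha chain of the leukocyte integrin LFA-1, has the sole undetected probe among the members with 5 spots per array, and these show how noisy a reading near zero is. Their mean and SD were 8.5 ± 8.2, -4.4 ± 7.5 and 5.7 ± 8.8 in the small tail Han breed and 1.7 ± 7.3, 10.3 ± 5.3 and 3.6 ± 5.2 in the Aohan breed (SD, n = 5 spots on 1 array). The SD between spots of 1 sheep was thus 5.2 to 8.8, while the means of the sheep ran from -4.4 to 10.3. The other ITGAL probe, with 1 spot, read 4.7, 9.4 and 9.3 in small tail Han and -2.6, 12.0 and 1.8 in Aohan sheep.

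CCR9, the gut-homing chemokine receptor of lymphocytes, stayed under the limit at both probes, with 6.9, 2.6 and 7.9 in the small tail Han breed and 1.0, 12.3 and 5.7 in the Aohan fine wool breed at A_70_P030201. At A_70_P030202 the readings were 8.7, -1.5 and 13.7 in small tail Han and -2.2, 16.6 and 4.7 in Aohan sheep, where Aohan sheep 2 lay at 0.946 of its limit. The ligand of CCR9, CCL25, had a probe above the limit on all 6 arrays. RHOH, a signalling protein of blood cells, read -3.9, -14.3 and -5.0 in small tail Han and -14.6, 13.3 and -1.2 in Aohan sheep, with Aohan sheep 2 alone above zero. TLR8, a sensor of single-stranded RNA in endosomes, read 12.8, 16.4 and 4.1 in small tail Han and -3.4, 9.0 and -2.0 in Aohan sheep at its undetected probe. Relatives of these genes were often detected, as were 69.8% of all accession-named probes on all 6 arrays. Counts of relatives, here and below, take the best probe of each gene and are no result about the families. Among the T cell genes CD247, CD3D, CD3E, CD40LG, CTLA4 and LCK, 6 of 6 had a probe above the limit on all 6 arrays, as had 6 of the 8 other toll-like receptors, 8 of the 13 other interleukins and both other chemokine receptors. Of the 37 immune receptor genes with an accession-named probe, 5 were members (13.5%, beside 7.16% of all genes). These families were put together after the members were known.

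Hormones and receptors of the pituitary axis formed another group. FSHB, the beta subunit of follicle-stimulating hormone, has 1 probe, which read 2.0, -9.3 and 0.8 in the small tail Han breed and -6.6, 3.7 and 5.1 in the Aohan fine wool breed. The highest of these was 0.212 of the limit of its array, and the breeds overlapped. GH, growth hormone, read 11.2, 14.2 and 9.1 in small tail Han and 1.2, 8.1 and 16.8 in Aohan sheep at A_70_P039747, positive in all 6 sheep. POU1F1, the transcription factor that switches on growth hormone and prolactin, read 18.4, -0.3 and 17.1 in small tail Han and -10.7, 3.9 and 6.8 in Aohan sheep, lowest in Aohan sheep 1. TRHR, the receptor of thyrotropin-releasing hormone, read -1.6, 1.8 and -4.3 in small tail Han and -8.7, -2.3 and -7.1 in Aohan sheep, below zero in 5 of 6 sheep. Of 11 genes listed for the pituitary axis, 3 were members (27.3%, beside 7.16% of all genes), and TRHR was not on the list. In that list 7 of the 11 genes had a probe above the limit in all 6 sheep, beside 69.8% of all accession-named probes. Some of these genes, such as CGA, had another probe that was above the limit on no array.

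Genes of the ovary, the placenta and the mammary gland gave a similar picture. BMP15, a growth factor made by the oocyte, read -1.8, -22.4 and -4.7 in the small tail Han breed and -8.7, -3.0 and -7.2 in the Aohan fine wool breed at A_70_P003556, below zero in every sheep. Its other probe read 11.1, 13.2 and 15.3 in small tail Han and -5.7, 1.9 and -2.2 in Aohan sheep, and here the 3 small tail Han readings lay above the 3 Aohan readings while the highest reached 0.523 of the limit. CYP11A1, which cuts the side chain of cholesterol in the first step of steroid synthesis, read -6.4, -8.2 and 7.0 in small tail Han and -9.3, 6.6 and 0.7 in Aohan sheep. CYP19, the aromatase that makes oestrogen, read 13.0, 1.7 and 8.9 in small tail Han and -1.7, 15.0 and 14.7 in Aohan sheep, with Aohan sheep 2 closest to its limit. Of the 7 genes of steroid synthesis and conversion with such a probe these were the only members, and STAR, CYP17A1, HSD11B1 and HSD11B2 were above the limit on all 6 arrays. PAG3, a pregnancy-associated glycoprotein of the trophoblast, read -0.8, -0.5 and 6.1 in small tail Han and -11, 12.8 and -3.2 in Aohan sheep. PRP1, a placental relative of prolactin, read 1.2, 14.4 and -2.2 in small tail Han and -7.0, 9.3 and 0.9 in Aohan sheep. Relatives of both, PAG6, PAG9 and PRP2, had a probe above the limit on all 6 arrays, while PAG5 had its best probe above it on 2. CSN1S2, the milk protein alpha-S2-casein, read 6.0, 40.6 and 6.2 in small tail Han and 10.3, 14.2 and 10 in Aohan sheep, positive in all 6 sheep, with 40.6 in small tail Han sheep 2 as the highest signal of any member on any array. Of the lists, 3 of 8 ovary genes (37.5%), 2 of 11 placenta genes (18.2%) and 1 of 6 milk protein genes (16.7%) were members, beside 7.16% of all genes. These lists are short and were written with results of these data known, so the shares are description only.

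Carriers and secreted proteins known from liver and blood plasma were among the members nearest to and farthest from the limit. CP, ceruloplasmin, which carries copper and oxidises iron, read 21.8, 2.8 and 15.7 in the small tail Han breed and -1.2, 11.7 and 12.4 in the Aohan fine wool breed at A_70_P030126. The first small tail Han sheep was at 0.821 of its limit, and Aohan sheep 1 was below zero. SPP2, secreted phosphoprotein 24, read 12.4, 19.5 and 28.9 in small tail Han and 3.4, 15.2 and 9.3 in Aohan sheep, and in small tail Han sheep 3 it came to 0.988 of the limit, the reading nearest to the limit among all members. SERPINA7, the thyroxine-binding globulin of plasma, read -4.5, -24.1 and -7.7 in small tail Han and 3.0, -4.2 and -7.0 in Aohan sheep at A_70_P051016. The other probe, A_70_P051017, gave 0.3, -5.6 and 4.7 in small tail Han and -2.4, 5.1 and 1.2 in Aohan sheep. A_70_P051016 was below zero except in Aohan sheep 1. The 5 other serpins with an accession-named probe all had a probe above the limit on 3 or more arrays. The liver and plasma list held 1 member among 13 genes (7.69%, beside 7.16% of all genes), and SERPINA7 and SPP2 were not on it.

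Channels and a lens protein were members too. AQP1, the water channel of red cells, capillaries and kidney tubules, had the highest median of all members. It read 24.8, 1.8 and 21.9 in the small tail Han breed and 10.2, 13.3 and 18.8 in the Aohan fine wool breed at A_70_P051356. The other probe, A_70_P051357, gave 12.5, 26.5 and 10.5 in small tail Han and 4.1, 13.6 and 4.2 in Aohan sheep. All 12 readings were above zero and the first probe reached 0.934 of the limit in small tail Han sheep 1. CFTR, the chloride channel of secretory epithelia including sweat ducts, read -2.6, 8.2 and 5.5 in small tail Han and -8.9, 4.3 and -0.4 in Aohan sheep at A_70_P050951. CRYBB3, a beta-crystallin of the eye lens, read 10.8, 4.6 and 1.7 in small tail Han and -2.6, 1.3 and -1.8 in Aohan sheep at A_70_P039541. The other probe, A_70_P039542, gave 2.2, -11.4 and 2.9 in small tail Han and -3.7, 3.4 and -2.7 in Aohan sheep. At A_70_P039541 the breeds did not overlap, small tail Han being higher, and the highest reading was 0.404 of the limit. The crystallins CRYAA and CRYAB, the other lens genes on the list, had a probe above the limit on all 6 arrays.

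Several members are genes whose products are known from skin, fat or most cell types. VEGFA, the growth factor of blood vessels that follicle keratinocytes secrete, read 3.0, 0.0 and -1.5 in the small tail Han breed and -7.7, 11.9 and -2.9 in the Aohan fine wool breed at A_70_P050921. The second probe, A_70_P050922, read 1.4, -17.2 and -3.3 in small tail Han and 1.3, 5.6 and -3.5 in Aohan sheep. The highest of the 12 readings was 0.678 of the limit, in Aohan sheep 2. The study's probe annotation gives the symbol VEGFA also to A_70_P061521, a probe that the array names by a cDNA tag, and this probe read 4179.7, 3738.0 and 3300.4 in the small tail Han breed and 1135.2, 1881.0 and 1059.0 in the Aohan fine wool breed. That is 29.2 to 157.2 times the limit, above it in all 6 sheep, and the 3 small tail Han readings lay above the 3 Aohan readings. That annotation lists probes the study chose for a difference between breeds, so the order by breed is no separate finding. VEGFA is thus undetected at its accession-named probes but not at every probe that carries its symbol. With this probe taken into account 44 probes and 34 genes remained, and VEGFA was the only member gene to which that annotation gave another probe. Probes named by cDNA tags without a symbol were not matched to the other members.

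SCD, the stearoyl-CoA desaturase that makes monounsaturated fatty acids in sebaceous glands and fat, has 1 accession-named probe, which read -2.9, -1.6 and -9.0 in the small tail Han breed and 4.1, -1.2 and 2.1 in the Aohan fine wool breed. The highest of these is 0.106 of a limit, and the 3 small tail Han readings lay below the 3 Aohan readings. The related SCD5 had a probe above the limit in all 6 sheep. ADIG, adipogenin, a small membrane protein of fat cells, read 6.1, 6.9 and 8.2 in small tail Han and -9.1, 4.2 and 0.0 in Aohan sheep, and LEPR, the leptin receptor, was undetected at A_70_P039557 and A_70_P056812. The readings of LEPR were -4.0, -8.4 and -5.4 in small tail Han and -11.7, -3.4 and -7.5 in Aohan sheep at the first, below zero throughout, and -1.3, 5.2 and 3.0 in small tail Han and -6.1, 1.6 and -3.6 in Aohan sheep at the second. Of 9 genes listed for fat and energy, 2 were members (22.2%, beside 7.16% of all genes), and ADIG was not on the list.

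Nuclear receptors and signalling enzymes of broad expression were present too. NR3C1, the glucocorticoid receptor, read 21.0, -9.2 and 15.6 in the small tail Han breed and 3.2, 15.2 and 1.2 in the Aohan fine wool breed at its sole probe, and small tail Han sheep 1 and Aohan sheep 2 were at 0.790 and 0.868 of their limits. THRA, the thyroid hormone receptor alpha, read 5.3, -12.3 and 0.0 in small tail Han and -2.5, 11.1 and 0.7 in Aohan sheep at A_70_P050996. The other probe, A_70_P050997, gave -3.4, -13.2 and 8.8 in small tail Han and -11.7, 1.3 and -4.5 in Aohan sheep. Its readings fell on both sides of zero in each breed. FURIN, a protease that activates precursor proteins in the secretory pathway, read -2.7, -1.4 and -1.9 in small tail Han and -5.5, 7.8 and 20.4 in Aohan sheep, with the highest signal in Aohan sheep 3 at 0.782 of its limit and the lowest in Aohan sheep 1. PDGFB, a growth factor for mesenchymal cells, read 5.2, -7.2 and 2.4 in small tail Han and -0.9, 10.5 and 3.0 in Aohan sheep. SLC25A10, the mitochondrial carrier of dicarboxylates, read 5.7, 2.3 and 6.7 in small tail Han and 5.5, 5.5 and 8.5 in Aohan sheep, above zero in every sheep and at most 0.324 of the limit. The 8 other mitochondrial carriers of its family all had a probe above the limit on 3 or more arrays, 7 of them on all 6.

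BIIIB4 is named for a high-sulphur wool matrix protein, a class that fills the space between keratin filaments in the fibre. It read 8.5, -15.1 and 20.9 in the small tail Han breed and 1.1, 6.3 and 17.2 in the Aohan fine wool breed, at most 0.716 of the limit. The keratin-associated proteins KRTAP4.3 and KRTAP5.4, also of the wool fibre, were above the limit on all 6 arrays. Of the 2 genes without a symbol, the first read -1.2, -21.1 and -2.5 in small tail Han and -8.1, -2.9 and -5.2 in Aohan sheep at A_70_P051371, below zero in every sheep. Its other probe, A_70_P051372, gave 4.9, -6.2 and 1.2 in small tail Han and -4.2, 4.1 and -5.0 in Aohan sheep. The second gene read -0.1, -18.8 and 5.0 in small tail Han and -2.0, 3.3 and -8.4 in Aohan sheep at A_70_P030102. None of these readings was over 0.235 of the limit.

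Set against the 24 lists of tissues and functions, 24 of the 35 member genes were on a list and 11 on none. BMP15 was counted both under ovary and under growth factors. Members made up 3 of 16 growth factors and morphogens (18.8%), 1 of 8 kidney genes (12.5%), 1 of 6 adrenal and steroid genes (16.7%), 1 of 3 lung genes and 1 of 3 eye genes (33.3% each) and 1 of 18 interleukins and T cell cytokines (5.56%), beside 7.16% of all genes. No member was among the 9 skin and wool, 9 striated muscle, 8 hypothalamic, 7 stomach and intestine, 6 neural, 4 melatonin and clock, 3 bone, 2 type 1 interferon (both receptors), 1 red cell and 1 testis genes, and the pancreas list had no accession-named gene. The wool matrix protein BIIIB4 was not on the skin and wool list, and that zero depends on it. In every list with a member, more genes had a probe above the limit on all 6 arrays than were members. No list for another organ was thus silent as a whole, but 69.8% of all accession-named probes were above the limit on all 6 arrays.

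**Figure D3:**
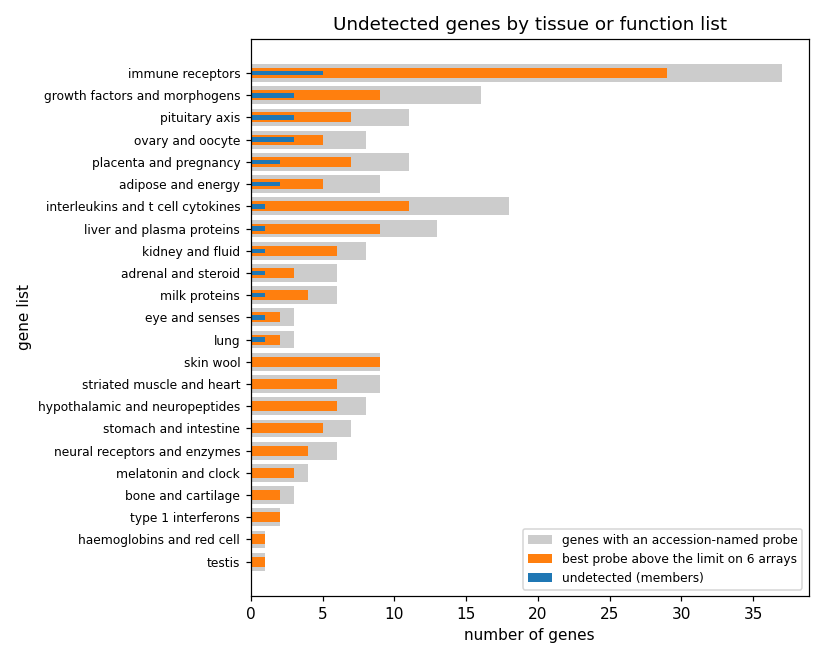
Number of genes with an accession-named probe in each list of tissue or function (grey), the number whose best probe was above the limit on all 6 arrays (orange, drawn inside) and the number of members (blue, drawn inside). The members fall in 13 of the lists, and all 9 genes of the skin and wool list, which leaves out BIIIB4, had a probe above the limit on all 6 arrays.

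Of the 35 genes, 20 had no accession-named probe above the limit on any array, 10 of them with 1 such probe and 10 with a pair. The other 15 had another probe with the flag at 1 or more spots, on 1 array (CD4, GH, LEPR, TLR8, TRHR and 1 gene without a symbol) or on 2 arrays (ADIG, CFTR, CP, CSN1S2, CYP11A1, CYP19, PAG3, POU1F1 and PRP1). These 16 other probes were flagged 7 times on small tail Han array 1, 7 times on array 3, 11 times on Aohan array 2 and on none of the remaining 3 arrays. By their mean signal 6, 7 and 10 of them exceeded the limit on these 3 arrays, since a probe of GH (0.506 of the limit) and one of LEPR (0.605) were flagged at some of 5 spots. The arrays with the most room above the limit were thus those on which a second probe was flagged, and the part of array sensitivity in this was not tested.

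**Figure D4:**
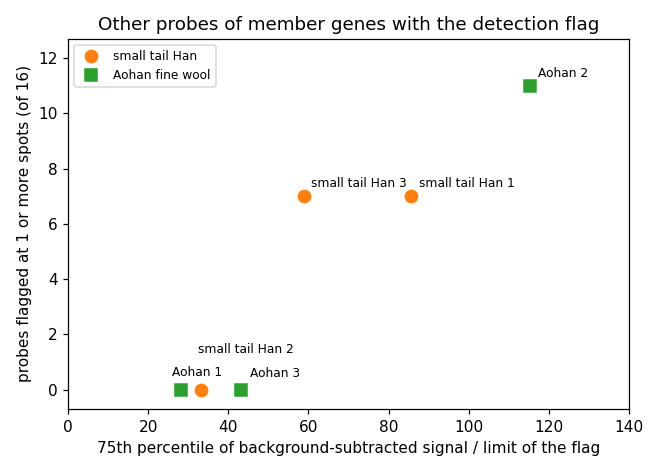
Number of the 16 other accession-named probes of member genes with the flag at 1 or more spots (vertical axis) against the 75th percentile of the background-subtracted signal divided by the limit (horizontal axis), 1 point per array. Aohan array 2, at 115.4, had 11 flagged probes, and the 3 arrays at 28.2, 33.2 and 43.2 had 0.

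The size of these second signals differed between genes. For scale, the highest negative control spot read 53.5 and 85.6 on small tail Han arrays 1 and 3, and 13.4 on Aohan array 2. For TRHR the other probe read -6.2, -8.2 and 127.6 in the small tail Han breed and -5.9, -1.4 and -1.3 in the Aohan fine wool breed, a single high reading in small tail Han sheep 3 with all others below zero. For POU1F1 it read 68.7, -8.0 and 31.2 in small tail Han and 16.2, 15.3 and 4.1 in Aohan sheep, highest in small tail Han sheep 1. For PAG3 it read 3.9, 51.6 and 57.3 in small tail Han and -9.0, 31.9 and 16.9 in Aohan sheep. In both the sheep of 1 breed ranged from near or below zero to well past the limit. CYP11A1 gave 16.0, 48.4 and 66.7 in small tail Han and 2.7, 20.8 and 18.3 in Aohan sheep at its other probe. Small tail Han sheep 2 and 3 were highest, but the limit of array 2 is 55.0, and sheep 3 and Aohan sheep 2 were those that passed. CYP19 gave 46.2, 6.8 and 21.0 in small tail Han and -14.8, 18.2 and 3.5 in Aohan sheep, with Aohan sheep 1 below zero. CFTR was steadier, at 29.5, 15.7 and 28.7 in small tail Han and 25.2, 33.1 and 23.5 in Aohan sheep, with all 6 sheep above zero.

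CSN1S2 read 29.8, 25.5 and 24.6 in small tail Han and 9.3, 23.7 and 19.3 in Aohan sheep at its other probe, likewise above zero in all 6 sheep. The fat cell gene ADIG read 35.2, 10.5 and 21.7 in small tail Han and 9.3, 20.1 and 18.5 in Aohan sheep, also above zero throughout. The plasma protein CP read 44.2, 11.6 and 21.5 in small tail Han and 6.6, 28.6 and 1.3 in Aohan sheep, with small tail Han sheep 1 highest. PRP1 read -3.0, 6.9 and 35.7 in small tail Han and -10.7, 17.6 and 14.9 in Aohan sheep. PRP1 passed in small tail Han sheep 3 and in Aohan sheep 2 while 2 sheep were below zero. Among the genes with 1 passing array, CD4 read 20.7, 12.3 and 31.8 in small tail Han and 12.1, 15.3 and 19.0 in Aohan sheep at its other probe, above zero in every sheep. TLR8 read 14.0, 31.5 and 17.1 in small tail Han and -3.1, 22.3 and 7.7 in Aohan sheep, above zero in all but Aohan sheep 1. The gene without a symbol read 9.1, 14.3 and 31.1 in small tail Han and -7.1, 1.5 and 8.2 in Aohan sheep at A_70_P030101, where small tail Han sheep 3 passed.

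The values on either side of the rule are given as a description. Just inside were SPP2 at 0.988, CCR9 at 0.946 and AQP1 at 0.934 of the limit. Just outside were 19 probes flagged on exactly 1 array, of genes with no other accession-named probe flagged on 3 or more arrays. In 4 of the nearest 5 the flag was set at some of 5 spots while the mean stayed below the limit. GHSR, the ghrelin receptor, gave means of 3.2, -10.5 and 2.0 in small tail Han and -4.0, 6.5 and -0.6 in Aohan sheep. The other probe of GH gave 13.5, -1.6 and 6.3 in small tail Han and -2.0, 6.2 and 4.6 in Aohan sheep, both on each side of zero. OXTR, the oxytocin receptor, gave 5.5, -0.1 and 2.5 in small tail Han and -4.5, 10 and 2.3 in Aohan sheep, and LEPR gave 14.6, 7.7 and 9.1 in small tail Han and 1.8, 10.6 and 3.2 in Aohan sheep at a further probe, above zero in all 6 sheep. The fifth was the second OXTR probe, at 26.6, -1.2 and 20.5 in small tail Han and 0.2, 11.9 and 5.2 in Aohan sheep, where small tail Han sheep 1 lay at 1.002 of the limit. The last LEPR probe read 9.3, -4.4 and 17.3 in small tail Han and 4.3, 17.7 and 12.2 in Aohan sheep and passed in Aohan sheep 2 at 1.011.

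A probe without signal did not always mean a gene without signal. Of 251 genes with 2 or more accession-named probes, 41 had a probe that passed on no array. In 25 of them no other probe passed on 3 or more arrays, in 7 the best other probe passed on 3 to 5, and in 9 on all 6. The last 2 groups are the 16 genes with 18 undetected probes that the rule left out, and they show how far probes of 1 gene can disagree. For EGR1, an immediate early transcription factor, A_70_P041732 read 818.4, 775.5 and 746.7 in the small tail Han breed and 691.3, 802.8 and 577.0 in the Aohan fine wool breed while A_70_P041731 read 6.5, 5.7 and -2.5 in small tail Han and 6.9, 5.0 and 0.1 in Aohan sheep. For FSHR, the receptor of follicle-stimulating hormone, A_70_P039292 read 1307.1, 864.4 and 1157.8 in small tail Han and 1860.5, 1313.7 and 1734.5 in Aohan sheep and A_70_P039291, the mean of 5 spots, read 7.2, 2.4 and 5.8 in small tail Han and -0.2, 8.8 and 3.0 in Aohan sheep. The first probe of each gene was above the limit in all 6 sheep and the second in none.

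CGA, the common alpha subunit of pituitary glycoprotein hormones, ESR2, an oestrogen receptor, MYOG, a muscle transcription factor, PAG9, PRP2 and a gene without a symbol (A_70_P012601 and A_70_P012602) likewise had a probe above the limit on all 6 arrays and another on none. FGF10, a growth factor of epithelial buds, had 3 undetected probes and another that read 86.5, 51.4 and 130.4 in small tail Han and 48.2, 111.6 and 64.5 in Aohan sheep, above the limit on 5 arrays. GNRHR and ITGAM passed on 5 arrays at the other probe, MMP14 on 3 and 4 at its other probes, and AGPAT1, IL12B and TLR9 on 3. AGPAT1 is named by the study's probe annotation, and its undetected probe reached 0.998 of the limit in small tail Han sheep 1. Its other probe, A_70_P039727, read 113.2, 139.8 and 118.1 in small tail Han and -2.2, 14.4 and 0.3 in Aohan sheep. It was thus above the limit on the small tail Han arrays only. That annotation lists probes chosen for a difference between breeds, so the order by breed is no separate finding. The 10 member genes that rest on a single accession-named probe (BIIIB4, CD28, FSHB, FURIN, NR3C1, PDGFB, RHOH, SCD, SLC25A10 and SPP2) had no such second reading.

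**Figure D5:**
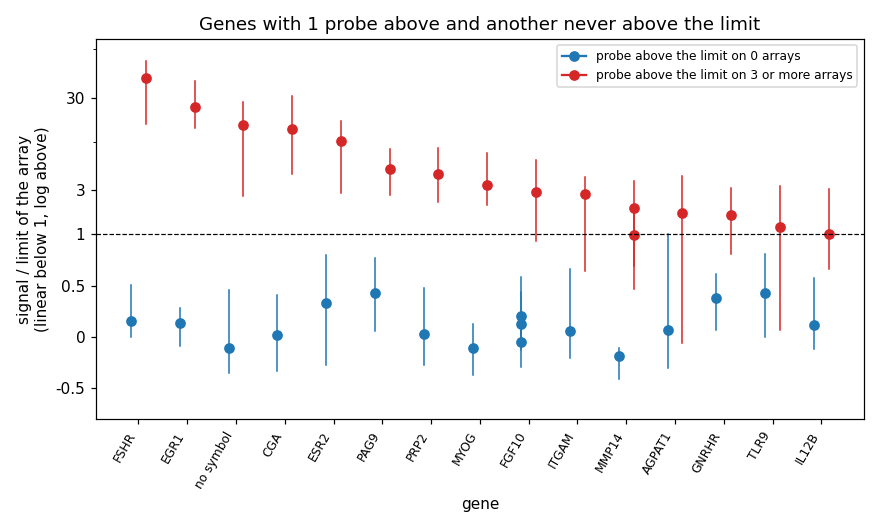
Signal divided by the limit of the array for 15 of the 16 genes left out, with the probe or probes above the limit on no array in blue and those above it on 3 or more arrays in red. Points are medians over 6 arrays, bars run from the lowest to the highest array, and the axis is linear below 1 and logarithmic above.

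The study compared fine and coarse wool breeds, and the members were set beside that contrast in a fit over all 14986 probes with values (limma on log2 processed signals scaled to the 75th percentile, Benjamini-Hochberg adjustment). None of the 46 member probes passed at an adjusted p of 0.05, beside 1779 of 14986 probes (11.9%, with 5.41% higher and 6.47% lower in Aohan sheep). The rule keeps only probes under the limit in both breeds, which leaves little room for a difference. A low share among members, here and below, is thus favoured by the rule and is no result about these genes. At an unadjusted p of 0.05, 1 member passed (2.17%), beside 3882 of all probes (25.9%). It was FURIN, with an adjusted p of 0.149 in limma, the lowest of the members. Without Aohan sheep 2 FURIN passed with an adjusted p of 0.0434 in limma, with processed signals higher in Aohan sheep. In background-subtracted signal Aohan sheep 1 and 3 read -5.5 and 20.4, on either side of the small tail Han readings of -2.7, -1.4 and -1.9. The direction by breed in the processed signals is thus not borne out by the measured signal of Aohan sheep 1. The methods' t-test, here with Benjamini-Hochberg adjustment in place of the permutation-based rate of the methods, called 0 members, adjusted or not. Over all 14913 probes it called 571 (3.83%) adjusted and 3331 (22.3%) unadjusted. Over all alternatives run the lowest adjusted p of any member was between 0.0434 and 1. No fold change is given, since no member stood above background in either breed and the processed signal is a stand-in at 182 of the 276 member readings. These p-values measure the spread between sheep of 1 sire per breed, and 3 arrays a breed limit the precision.

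Scaled to the 75th percentile of its array, the signal of 4 of the 46 members (8.70%) did not overlap between breeds, beside 4616 of all 15008 probes (30.8%). ADIG at A_70_P029976, BMP15 at A_70_P003557 and CRYBB3 at A_70_P039541 were higher in small tail Han sheep, and SCD was higher in Aohan sheep. The highest of their 24 readings was 0.523 of the limit, so these are orders among readings below detection.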

How the data were processed

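Total RNA of 6 skin samples was labelled with Cy3 and hybridised by the authors to the Agilent sheep array, 1 sheep per array. The deposited scanner files hold intensity values per spot, written by version 10.5.1.1 of Feature Extraction (Agilent) per the file headers, with background subtracted and a flag for spots well above background. Where a spot was not significantly above its local background, the processed intensity is a small positive stand-in, so readings are background-subtracted signals in scanner units, averaged over the spots of a probe. The authors also deposited a table of normalized log2 values, used for percentiles and as an alternative.

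Probes were named by RefSeq mRNA accession through the sheep reference ARS-UI_Ramb_v3.0 (734 of 758 probes matched). Every member gene was named by symbol or, for 2 genes, by probe, and values on every array were given for genes with several probes, for the highest and lowest members, for the probes just outside the rule and for up to 3 members of each list. Members not required by that rule were also given values, after these were seen. The members and lists were chosen with earlier results of these data known, and gene families were grouped after the members were seen. The breed comparison used the R package limma (version 3.58.1, R 4.3.3) on log2 processed signals minus the 75th percentile of each array, with an intensity trend and without a filter on dim probes, and the fit was tested on simulated data. Alternatives changed the flag, the negative control limit, the arrays used, the rule on other probes, the normalization, the filter, the trend and the test. Promoter and protein sequences were not analysed here, and 1 of the genes left out is not reported here by name.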

Additional observations from a re-analysis of the deposited data

How the results depend on the processing

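The number of members moved by over 1.5 times with the flag, with the rule on other probes and with the use of the small tail Han arrays alone. With the weaker flag, significantly above local background, 7 probes of 7 genes were left after the same step on other probes (CD28, CRYBB3, IL4, SCD, SERPINA7, TRHR and 1 gene without a symbol). On the small tail Han arrays alone 70 probes of 53 genes were undetected, beside 61 probes of 44 genes on the Aohan arrays alone. When a gene was left out for another probe above the limit on 1 or more arrays, 30 probes of 20 genes remained. Leaving out 1 sheep gave 46 to 61 probes and 35 to 46 genes, the most without Aohan sheep 2. The other definitions moved neither count by more than 1.5 times, but which genes were kept could change. With the 99th percentile of the negative controls as the limit, 33 probes of 25 genes were undetected. Of these, 30 probes and 23 genes were members, and GHSR and OXTR came in. AQP1, CD4, CP, NR3C1 and SPP2 were among the members that dropped out. For the breed comparison, members passing ranged from 0 to 1 when 1 sheep was left out (1, FURIN, without Aohan sheep 2) and were 0 under the other alternatives run for them. The filter on dim probes removes every member and gives no count for them. Over all probes the count was 1005 without the intensity trend, 571 with the methods' t-test under Benjamini-Hochberg adjustment and 748 to 2148 when 1 sheep was left out. Replicate numbers did not pair the sheep, with correlations of deviations of -0.22, -0.37 and 0.28, and with the replicate block 0 members and 1203 of all probes passed. The limit differed between arrays from 17.5 to 55.0 units, so a transcript undetected on small tail Han array 2 could pass on Aohan array 2.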
